A study of Mus musculus with 8 samples.

Results

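The genes described here encode the protein subunits of the cytosolic ribosome. They were taken by name from the deposited gene tables, as every gene named Rpl or Rps with a number and at most a short suffix, together with Rplp0, Rplp1, Rplp2, Rpsa and Fau. Rows of processed pseudogenes, which end in -ps, were left out. This gave 86 of 38215 genes. Of these, 32 encode proteins of the small 40S subunit, 43 proteins of the large 60S subunit, 3 the P stalk of the large subunit, and 8 are paralogues of such genes. After the filter on low counts, 82 of them were among the 13397 genes tested.

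The RNAseq compared FoxP3+ regulatory T cells (Treg) sorted from bone marrow (BM-Treg) and spleen (SP-Treg) of naïve mice, with 4 libraries from each. The animals, B6.FoxP3-GFP, were 12 weeks old. In these mice cells that express FoxP3 carry a green fluorescent protein, and the labels give the genotype of all libraries as C57Bl/6. BM-Treg replicates 1 to 3 are labelled batch 1 and female, whereas BM-Treg replicate 4 and all 4 of SP-Treg are labelled batch 3 and male, so that tissue is nearly confounded with batch and sex. The study's methods name female mice as the default, which differs from the label male of the batch 3 libraries. The study calls the libraries biological replicates. The titles of the SP-Treg libraries carry number ranges that overlap from library to library, and whether libraries share animals is not stated, so p-values measure the spread between these libraries, which may in part be technical. Library totals lay between 12427136 and 21921252 expected counts. Transcripts of the mitochondrial genome took 24.5 to 28.7% of them in BM-Treg and 19.2 to 32.9% in SP-Treg. The summed level of 6 Treg markers ran from 7127 to 8598 CPM (counts scaled to a common library total) over BM-Treg and from 7844 to 8636 CPM over SP-Treg, with Foxp3 itself at 1755 ± 255 and 1446 ± 188 (SD, n = 4). Markers of most other cell types were low, with erythroid genes (4 of 7 in the tables) at 4.71 to 9.55 CPM over BM-Treg and 1.16 to 127 CPM over SP-Treg, neutrophil genes at 1.35 to 9.90 and 0.217 to 16.7 CPM, and B cell genes at 11 to 14 and 6.36 to 94.4 CPM. Plasma cell genes (2 of 4 in the tables, Sdc1 and Prdm1) were at 286 to 427 and 284 to 433 CPM, pDC genes at 29.7 to 39.9 and 8.82 to 41.6 CPM, and CD8 T and NK cell genes at 10.9 to 12.4 and 14.0 to 42.3 CPM. Jchain and Mzb1 of the plasma cell list are absent, and whether the counts of Sdc1 and Prdm1 come from plasma cells or from the Treg was not tested.

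A ribosome contains a copy of nearly every protein encoded by these genes, built around ribosomal RNA, and the P stalk, made of Rplp0 with dimers of Rplp1 and Rplp2, recruits the elongation factors. In T cells the demand for ribosomes rises sharply when a resting cell is activated and begins to grow. The mRNAs of ribosomal proteins typically begin with a run of pyrimidines, the terminal oligopyrimidine (TOP) tract, through which mTORC1 signalling and the binding protein LARP1 control their translation and stability as a group.

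To show what the members share in sequence, the stretch around their start sites was read from the RefSeq promoter table (GRCm38.p6), which holds 64 of the 86 members. A run of at least 8 C or T on the sense strand between 50 bases before and 50 bases after the start was present in 53 of these 64 (82.8%), against 39.3% of the 27025 genes in the table. On the opposite strand the share was 23.4% of members and 41.1% of all genes, so the excess lay on the sense strand. Rpl3 and Rplp1 are not among the 64. The tracts of some of the members with results described below are printed here, 30 bases each, with the pyrimidine run in capitals.

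Rpl4 (chr9:64173406-64173435, + strand): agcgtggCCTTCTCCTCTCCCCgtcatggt
Rps21 (chr2:180257399-180257428, + strand): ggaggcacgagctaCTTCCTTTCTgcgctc
Rps27 (chr3:90213631-90213660, - strand): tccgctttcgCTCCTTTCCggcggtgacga
Rps6 (chr4:86857349-86857378, - strand): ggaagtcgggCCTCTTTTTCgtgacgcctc
Rplp2 (chr7:141447636-141447665, + strand): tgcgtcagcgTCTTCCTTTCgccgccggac
Rpl38 (chr11:114668568-114668597, + strand): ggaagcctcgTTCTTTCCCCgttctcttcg
Rpl15 (chr14:18270967-18270996, - strand): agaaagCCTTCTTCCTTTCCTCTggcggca
Rpl27a (chr7:109519186-109519215, + strand): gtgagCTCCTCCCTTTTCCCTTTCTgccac

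The run of Rps6 begins 1 base before the annotated start, that of Rps27 and that of Rpl38 2 bases before, that of Rpl15 and that of Rpl27a 4 bases before, and that of Rplp2 5 bases before, whereas the longest run of Rpl4 begins 26 bases after it. Rps21 has 2 annotated starts, and its run begins 34 bases after the first and 36 bases before the second. Of members described below whose tracts are not printed, Fau has a run that begins 3 bases before the start. Those of Rpl5 and Rpl22 begin 20 and 39 bases before it, and those of Rpl11 and Rpl10 begin 13 and 40 bases after it. Rplp0 has no run of at least 8 pyrimidines in this window, and Rpl4, lower in BM-Treg, and Rps21, higher in BM-Treg, both have such a run in the window, the longest of each away from an annotated start. Over the whole 300 bases of each promoter and on both strands, the motif CCGGAAG was found in 40.6% of members and 9.93% of all genes, AAGATGG in 17.2% and 7.28%, GGGCGG in 62.5% and 38.2%, and TATAAA in 10.9% and 15.7%. A match is a description of the letters in the window, and overlaps between motifs were not removed.

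Ribosomal protein genes were abundant in Treg of both tissues. The 78 members that are no paralogue had mean FPKM values (counts per length and depth) between 99.8 and 1639, with a median of 377, and 77 of them were at 100 FPKM or more. Rps27, a zinc finger protein of the small subunit, had the highest FPKM of the members, with 1995 ± 167 in BM-Treg and 1283 ± 338 in SP-Treg (SD, n = 4). Rps24, a small subunit protein needed for processing of the 18S rRNA precursor, followed with 882 ± 90.9 and 892 ± 389 FPKM. Rpl41, which encodes a very short basic peptide of the large subunit, had 872 ± 131 and 833 ± 233 FPKM. In the order of FPKM levels Rps24 and Rpl41 differed by less than the SD of either tissue. The FPKM of Rps27 rests on the shortest effective length of the members, 178 bases, so that its order depends on that length as well as on its counts.

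Summed over members, the ribosomal protein genes took the same share of the library in both tissues within the spread between libraries. In BM-Treg they made up 1.85%, 2.07%, 2.21% and 2.17% of all expected counts in replicates 1 to 4, and in SP-Treg 1.87%, 1.91%, 1.97% and 2.87%. SP-Treg replicate 4 stood above the other 7 libraries, which lay together between 1.85% and 2.21%. The means were 2.07% ± 0.161 and 2.15% ± 0.476 (SD, n = 4), a difference of 0.0796 percentage points that was below the SD of either tissue. As a share of summed FPKM the order of the means turned, with 5.18% ± 0.266 in BM-Treg and 5.11% ± 1.02 in SP-Treg. Rows of pseudogenes named after members carried another 13.3 to 15.6% of the members' counts, in ranges that overlapped between the tissues, and reads from such near-identical copies can only be apportioned by estimate.

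The high level of SP-Treg replicate 4 ran through nearly the whole set of genes. It was the highest SP-Treg library in 77 of the 82 members tested (93.9%), against 26.4% of all genes tested, and the highest of all 8 libraries in 66. The median member lay 0.50 above its mean over the 8 libraries on the log2 CPM scale in that library, between -0.34 and -0.03 in the other SP-Treg libraries, and between -0.23 and 0.15 in BM-Treg. BM-Treg replicate 1 was the lowest BM-Treg library in 67 of the 82 members. As a result the median SD of members over SP-Treg libraries was 0.37 on the log2 CPM scale, and 0.19 without SP-Treg replicate 4, while over all genes it was 0.25 and 0.23. In that library the mitochondrial share, 29.6%, and the summed markers of erythroid cells, 77.2 CPM, neutrophils, 6.60 CPM, B cells, 15.4 CPM, pDC, 32.3 CPM, and CD8 T and NK cells, 17.7 CPM, all lay within the range of the other SP-Treg libraries, and the plasma cell genes, at 284 CPM, were the lowest. Members whose call differs without SP-Treg replicate 4 are therefore given below with and without it. Because this library was singled out by the members' own values, fits without it are descriptions and no separate support.

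**Figure D1:**
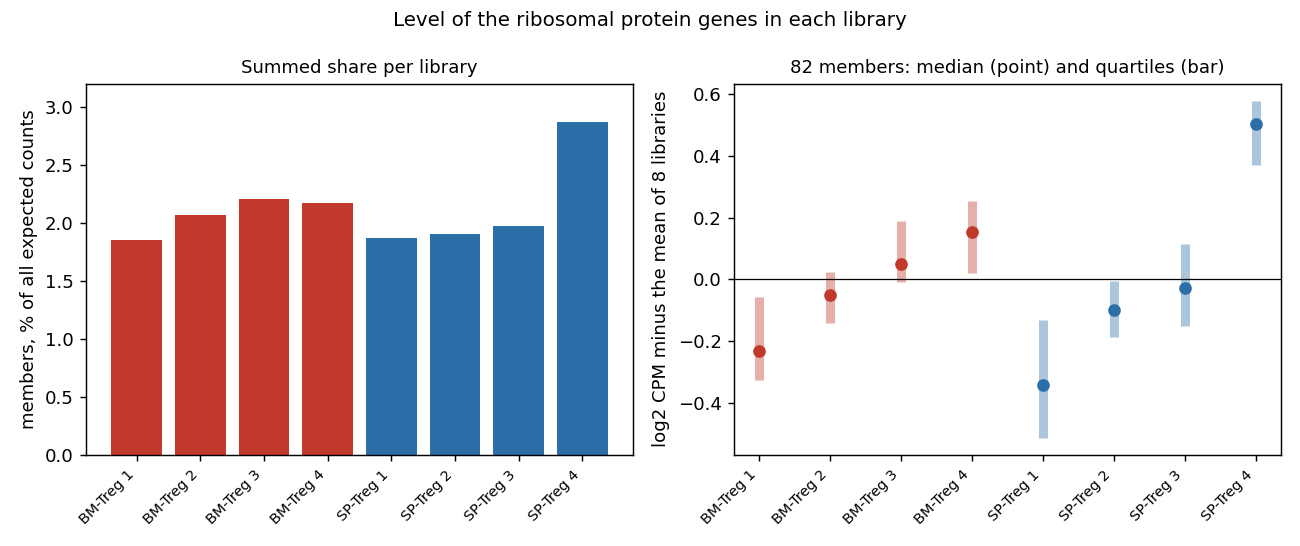
Left, percent of all expected counts that fall on the 86 ribosomal protein genes, 1 bar per library (BM-Treg red, SP-Treg blue). Right, log2 CPM of the 82 members tested minus each gene's mean over the 8 libraries, with the median as a point and the quartiles as a bar. SP-Treg replicate 4, at 2.87% and a median of 0.50, stands above the other 7 libraries in both.

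Whether ribosomal protein genes differ between the Treg of the 2 tissues was asked gene by gene with the quasi-likelihood test of edgeR, with p-values adjusted by Benjamini-Hochberg over all 13397 genes tested and a threshold of 0.05. Of the 82 members, 4 passed (4.88%), below the 8.75% of all genes tested that did. Rplp0, Rpl3 and Rpl4 were lower in BM-Treg and Rps21 was higher, where 5.02% of all genes were lower and 3.72% higher. At an unadjusted p under 0.05 there were 13 members (15.9%), 5 with higher and 8 with lower levels in BM-Treg, against 23.3% of all genes. Fitted log2 fold changes were negative for 53 members and positive for 29, with a median of -0.10 and a median of -0.01 over all genes tested. The direction of that small median was not stable, since it was 0.12 without SP-Treg replicate 4 and 0.11 in batch 3 alone. With limma-trend on log2(FPKM + 1) it was 0.05, with 43 members positive and 39 negative.

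**Figure D2:**
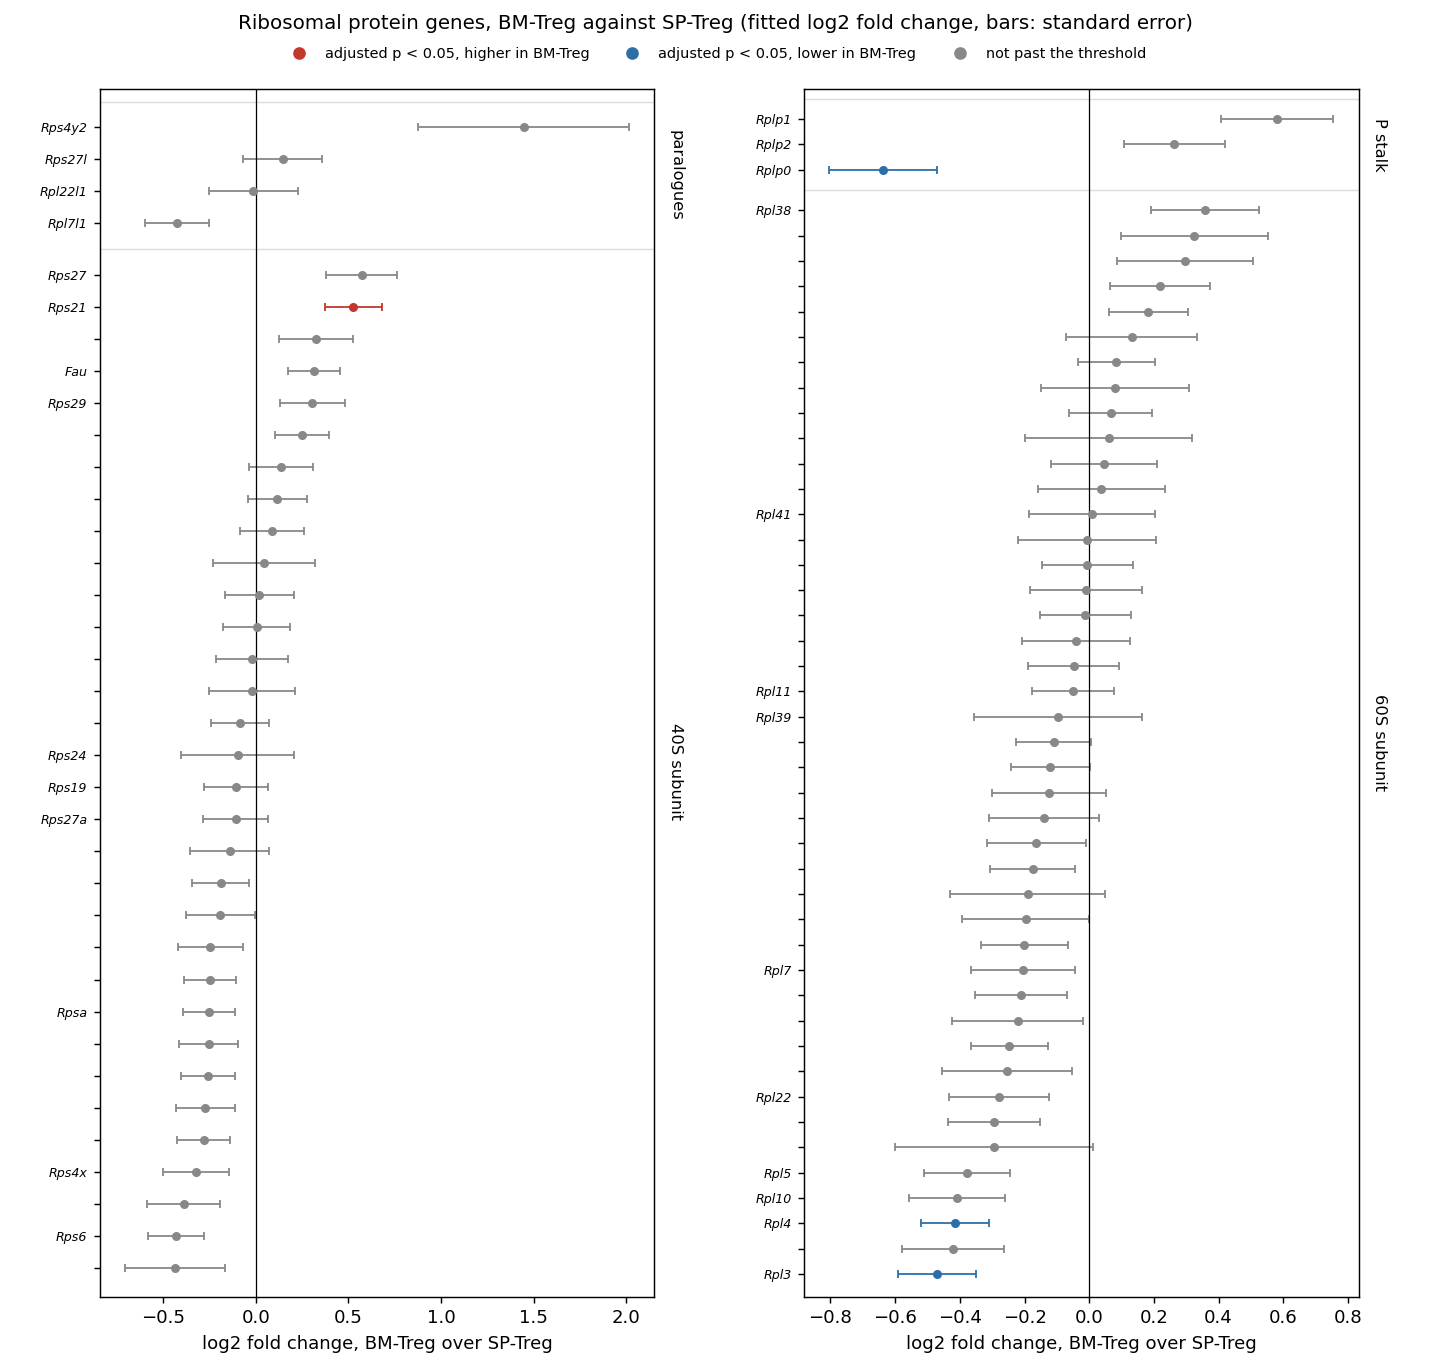
Fitted log2 fold change of BM-Treg over SP-Treg for the 82 members tested, with bars for the standard error, grouped into 40S subunit and paralogues (left) and 60S subunit and P stalk (right), with names for the genes chosen by role, level or call. All but 5 genes lie within 0.5 of 0. The axes of the panels differ because of Rps4y2 at 1.45, and the 4 genes in colour, Rplp0, Rpl3, Rpl4 and Rps21, passed an adjusted p of 0.05.

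Of the 3 genes of the P stalk, Rplp0 was lower in BM-Treg, and Rplp1 and Rplp2, with positive fold changes, did not pass in the fit described above. Rplp0 (ENSMUSG00000067274, chr5:115559467-115563727), the scaffold on which the acidic P proteins sit, was at 284, 302, 321 and 400.1 CPM in BM-Treg replicates 1 to 4 and at 499.5, 433, 389.9 and 683 CPM in SP-Treg. All BM-Treg libraries but replicate 4 lay below every SP-Treg library, and the groups overlapped at that replicate. The log2 fold change was -0.64 (SE 0.17, edgeR adjusted p = 0.0316), a fall to 0.643 of the SP-Treg level. It missed the threshold without BM-Treg replicate 1, 2 or 3 or SP-Treg replicate 1 (adjusted p = 0.0996, 0.0938, 0.0876 and 0.0722), and with a batch term (-0.34, adjusted p = 0.496). Rplp0 also did not pass with limma-trend on log2(FPKM + 1) or log2(FPKM + 0.1). Rplp1, an acidic protein that binds translation factors, was at 157, 162, 182 and 132 CPM in BM-Treg and at 75.3, 114, 88.1 and 139 CPM in SP-Treg. Here BM-Treg was the higher group apart from BM-Treg replicate 4, which lay below SP-Treg replicate 4, and the log2 fold change of 0.58 (SE 0.17) had an edgeR adjusted p of 0.0606. It passed without SP-Treg replicate 4, at a log2 fold change of 0.76 (adjusted p = 0.0081). With all libraries Rplp1 passed in DESeq2, limma-voom and limma-trend on both log2 FPKM scales, with an offset for length and with total counts as library sizes. Over 26 alternatives it passed in 10. With a batch term it did not pass (log2 fold change 0.325, edgeR adjusted p = 0.552). Rplp2, the partner of Rplp1, was at 211, 213, 254 and 246 CPM in BM-Treg and at 153, 169, 171 and 266 CPM in SP-Treg. All BM-Treg libraries lay above SP-Treg replicates 1 to 3 and below replicate 4, with a log2 fold change of 0.26 (SE 0.16, adjusted p = 0.340) that became 0.47 (adjusted p = 0.0152) without it. The ratio of Rplp0 to Rplp1, which does not depend on how libraries are scaled, was 1.81, 1.87, 1.77 and 3.03 in BM-Treg and 6.63, 3.79, 4.43 and 4.90 in SP-Treg on the CPM scale. The ranges of this ratio did not overlap, and SP-Treg replicate 4 lay inside the SP-Treg range. However, the pair was chosen after its values had been seen. BM-Treg replicate 4, which shares the batch of SP-Treg, was the BM-Treg library closest to that range. The effective length was 1279 bases for Rplp0 and 418 bases for Rplp1, and whether length moves the ratio was not tested.

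Rpl3 and Rpl4 were the members with the cleanest separation. Both are large proteins of the 60S core that join the ribosome early in its assembly, and Rpl3 reaches towards the peptidyl transferase centre. Rpl3 (ENSMUSG00000060036, chr15:80077781-80083406) was at 295, 339.8, 359.8 and 351 CPM in BM-Treg and at 428, 409.7, 429 and 572 CPM in SP-Treg. Rpl4 (ENSMUSG00000032399, chr9:64173387-64178562) was at 695, 760.2, 807 and 775 CPM in BM-Treg and at 942, 923, 989 and 1143 CPM in SP-Treg. Every BM-Treg library lay below every SP-Treg library in both genes, also BM-Treg replicate 4 of batch 3. These were the only 2 of 82 members without overlap (2.44%), compared with 15.9% of all genes tested. Libraries of BM-Treg lay wholly above those of SP-Treg in 8.26% of all genes and wholly below them in 7.67%, and among the members in 0 and 2. The log2 fold change was -0.47 for Rpl3 (SE 0.12, adjusted p = 0.0244) and -0.42 for Rpl4 (SE 0.11, adjusted p = 0.0240). In batch 3 alone, where there is no test, it was -0.37 and -0.36. Without SP-Treg replicate 4 it was -0.35 and -0.34, and both missed the threshold in edgeR (adjusted p = 0.0508 and 0.0565). They also missed it without BM-Treg replicate 1 (0.0883 and 0.0836), without BM-Treg replicate 2 (0.0705 and 0.0785), with total counts as library sizes (0.0745 and 0.0926) and with a batch term (0.299 and 0.262). Nor did either pass with limma-trend on log2(FPKM + 1) or log2(FPKM + 0.1), where 0 members were lower in BM-Treg.

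Of the other 60S genes, none passed. Rpl5, which carries the 5S rRNA into the large subunit and restrains MDM2 together with Rpl11, was at 344, 403, 430.1 and 453 CPM in BM-Treg and at 447, 480.4, 491 and 667 CPM in SP-Treg. Only the highest BM-Treg library and the lowest SP-Treg library crossed, with a log2 fold change of -0.38 (SE 0.13, adjusted p = 0.0950). Its partner Rpl11 was at 328 ± 23.7 and 334 ± 62.0 CPM (SD, n = 4), with a log2 fold change of -0.05 (SE 0.13, adjusted p = 0.857). Rpl10, an X-linked gene whose protein is among the last to join the large subunit, had a log2 fold change of -0.41 (SE 0.15, adjusted p = 0.111) that passed without SP-Treg replicate 1 (-0.50, adjusted p = 0.0481). The 4 members on the X chromosome had fold changes between -0.41 and -0.10 on the log2 scale, none past the threshold. Because 3 BM-Treg libraries are labelled female and the others male, tissue and sex cannot be told apart for them. At the other end, Rpl38, a small surface protein known for its part in translating Hox mRNAs, was at 109, 109, 122 and 139.9 CPM in BM-Treg and at 74.8, 80.1, 83.3 and 131 CPM in SP-Treg. Every BM-Treg library exceeded SP-Treg replicates 1 to 3 and all but replicate 4 lay below SP-Treg replicate 4. The log2 fold change of Rpl38 was 0.36 (SE 0.17, adjusted p = 0.222), and 0.58 (adjusted p = 0.0087) without that library. Over the 43 genes of the 60S subunit 0 were higher and 2 lower, and at an unadjusted p under 0.05 the counts were 0 and 5, with a median log2 fold change of -0.11.

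**Figure D3:**
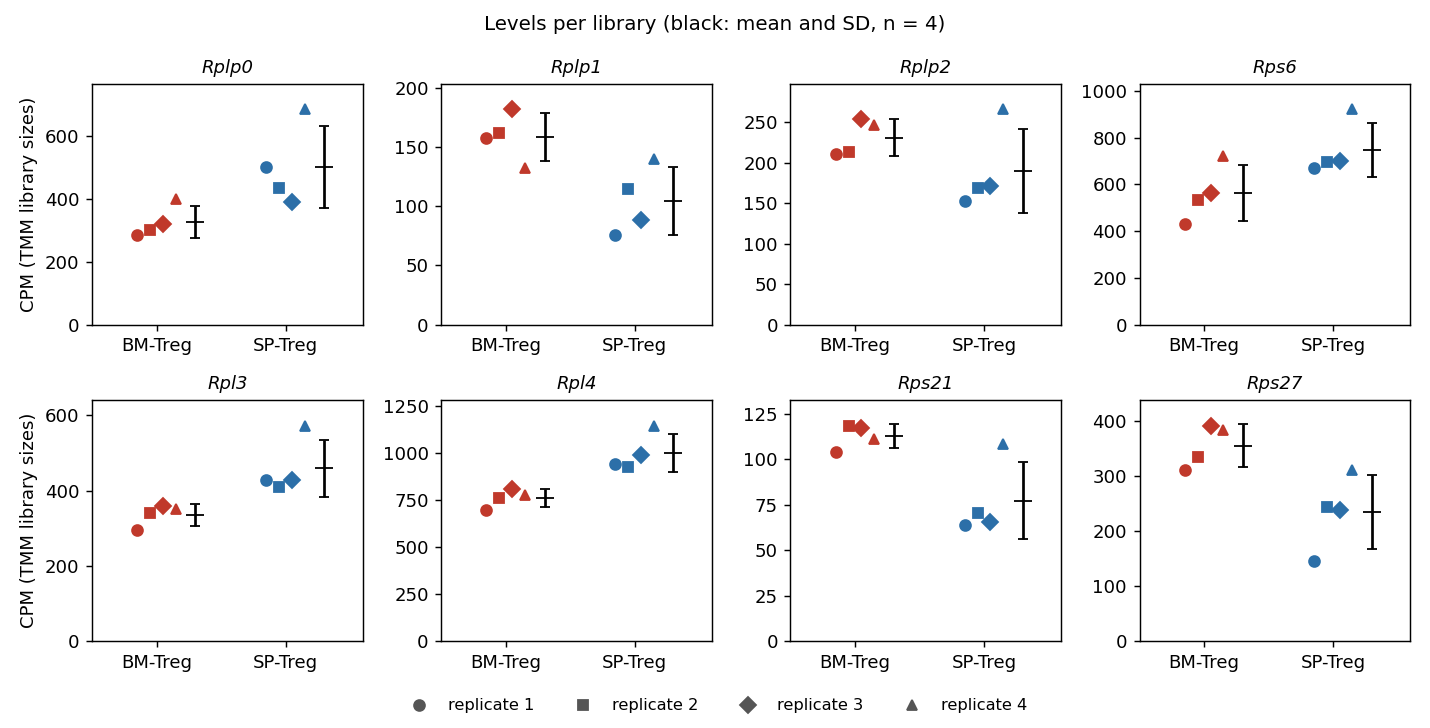
CPM per library on TMM library sizes for 8 genes, with symbols for the replicate number, BM-Treg in red and SP-Treg in blue, and the mean and SD (n = 4) in black. Rpl3 and Rpl4 do not overlap between the tissues, and SP-Treg replicate 4 is the highest SP-Treg library in each panel.

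Among the 32 genes of the 40S subunit, Rps21 was higher in BM-Treg and none was lower, and at an unadjusted p under 0.05 there were 3 and 1. Rps21 (ENSMUSG00000039001, chr2:180257377-180258445), a small protein of that subunit, was at 104, 118, 117 and 111 CPM in BM-Treg and at 63.8, 70.3, 65.8 and 109 CPM in SP-Treg. The 3 lower SP-Treg libraries lay far below BM-Treg, and SP-Treg replicate 4 lay above the lowest BM-Treg library. The log2 fold change was 0.53 (SE 0.15, adjusted p = 0.0469), 0.74 without SP-Treg replicate 4 (adjusted p = 0.0013) and 0.56 in batch 3 alone. Without any other single library the adjusted p was between 0.0616 and 0.117, and with a batch term 0.294, past the threshold in neither case. Rps27 was at 309.96, 334, 390.4 and 383 CPM in BM-Treg and at 145, 244, 239 and 310.04 CPM in SP-Treg, so that the groups overlapped only by a fraction of a CPM at SP-Treg replicate 4. Its log2 fold change was 0.57 (SE 0.19, adjusted p = 0.0921) and 0.74 (adjusted p = 0.0241) without that library. Rps6, the substrate of the S6 kinases downstream of mTORC1, was at 432, 533, 565 and 719.6 CPM in BM-Treg and at 672, 696, 699 and 920.5 CPM in SP-Treg. BM-Treg replicates 1 to 3 lay below every SP-Treg library while replicate 4 did not, and the log2 fold change of -0.43 (SE 0.15, adjusted p = 0.0924) was -0.04 within batch 3 and -0.57 (adjusted p = 0.0259) without BM-Treg replicate 4.

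The remaining named genes of the 40S subunit overlapped between the tissues. Fau, which encodes a ubiquitin-like protein fused to the ribosomal protein S30, was at 181 ± 26.0 and 144 ± 30.4 CPM in BM-Treg and SP-Treg, with a log2 fold change of 0.31 (SE 0.14, adjusted p = 0.201), and 0.47 (adjusted p = 0.0276) without SP-Treg replicate 4. Rps27a, which encodes ubiquitin itself fused to a ribosomal protein, was at 77.2 ± 9.00 and 82 ± 25 CPM, with a log2 fold change of -0.11 (SE 0.18). Rps19, the gene most often affected in Diamond-Blackfan anaemia, was at 171 ± 14.4 and 181 ± 47.8 CPM, with a log2 fold change of -0.10 (SE 0.17). Rps29 was at 190.0 ± 26.7 and 151 ± 40.6 CPM, with a log2 fold change of 0.31 (SE 0.17, adjusted p = 0.319), and 0.49 (adjusted p = 0.0458) without SP-Treg replicate 4. Rpsa, which is also described as a laminin receptor, was at 470 ± 97.0 and 551 ± 62.8 CPM, and its log2 fold change of -0.25 (SE 0.14, adjusted p = 0.299) turned to 0.11 within batch 3. Over the 40S genes 12 fold changes were positive and 20 negative, with a median log2 fold change of -0.10.

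Without SP-Treg replicate 4 the picture shifted towards BM-Treg. That library was singled out by the members' own high values, so leaving it out raises their fold changes more than those of other genes. The share of all genes is therefore no like baseline for the members in that fit. In that fit 13 members passed (15.9%, against 7.25% of all genes tested), 12 of them higher in BM-Treg and Rplp0 lower, and 2 of the 4 genes called with all libraries were among them. Among the 12 were Fau, Rpl36, Rpl37a, Rpl38, Rplp1, Rplp2, Rps14, Rps21, Rps27, Rps29 and the paralogue Rps4y2, with log2 fold changes from 0.47 (Rplp2) to 0.76 (Rplp1) and 2.35 for Rps4y2. Counted directly on CPM values, every BM-Treg library exceeded SP-Treg replicates 1 to 3 in 17 of 82 members and lay below them in 2. Over all genes tested the shares were 10.9% and 9.63%, which for the same reason are no like baseline. With SP-Treg replicate 4 kept in, the members wholly above SP-Treg were 0 and those wholly below it 2. Leaving out BM-Treg replicate 1 or BM-Treg replicate 2 gave 0 calls among members in edgeR, with 9 and 12 members at an unadjusted p under 0.05, where 6.02% and 5.07% of all genes tested passed. With batch as a term in the fit there were also 0, with 5 at an unadjusted p under 0.05. In that batch fit 258 of all genes tested passed (1.93%). The fit scaled by total counts alone, in which 8.08% of all genes passed, also had 4 members past the threshold, but 3 higher (Rplp1, Rps21, Rps27) and 1 lower (Rplp0) in BM-Treg, where 60.5% of the calls over all genes were higher compared with 42.6% on TMM library sizes.

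The members' fold changes tended to fall with effective length. The effective length, recovered from the deposited counts and FPKM values, ran from 178 bases (Rps27) to 2531 bases (Rpl7l1) over the 82 members. The 10 members under 400 bases had a median log2 fold change of 0.28, with 8 positive, and the 46 members from 400 to under 700 bases one of -0.04. The 17 members from 700 to under 1000 bases had a median of -0.14, and the 9 of 1000 bases or more one of -0.38, with 8 negative. In the same ranges of length the medians over all genes tested were 0.06, 0.06, 0.01 and -0.02 on the log2 scale. Rplp0, Rpl3 and Rpl4, which fell, have effective lengths of 1279, 1284 and 1345 bases, and Rps21, which rose, has 323. Spearman's rho between length and log2 fold change was -0.52 over the 82 members and -0.08 over 13250 genes. It was -0.58 without SP-Treg replicate 4 and -0.56 in batch 3 alone, where a single BM-Treg library is set against SP-Treg. Of the 12 members that were higher without SP-Treg replicate 4, all but Rps4y2 had an effective length of at most 525 bases, where the median of the members tested was 605. GC content moved with the fold change too, with a Spearman's rho of 0.43 over the members and 0.26 over 13191 genes, and so did the level in log2 CPM, with -0.42 over the members and -0.05 over 13397 genes. These correlations are across genes of the same 8 libraries, which are not independent, and share library preparation, length and base composition. When an offset for effective length was fitted over all genes, an alternative added after the data had been seen, 12 members passed (14.6%, against 10.1% of all genes tested). They were Rplp0, Rpl3, Rps6, Rpl10, Rpl15, Rps25, Rpl4, Rpl5 and Rpl22, lower in BM-Treg, and Rps21, Rps27 and Rplp1, higher. With GC content in the offset as well, 14 passed (17.1%, against 8.4% of all genes tested), 13 of them lower and Rps21 higher, while all 4 genes called without an offset passed in both fits. Spearman's rho between length and fold change over the members was -0.43 with the length offset and -0.31 with both.

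**Figure D4:**
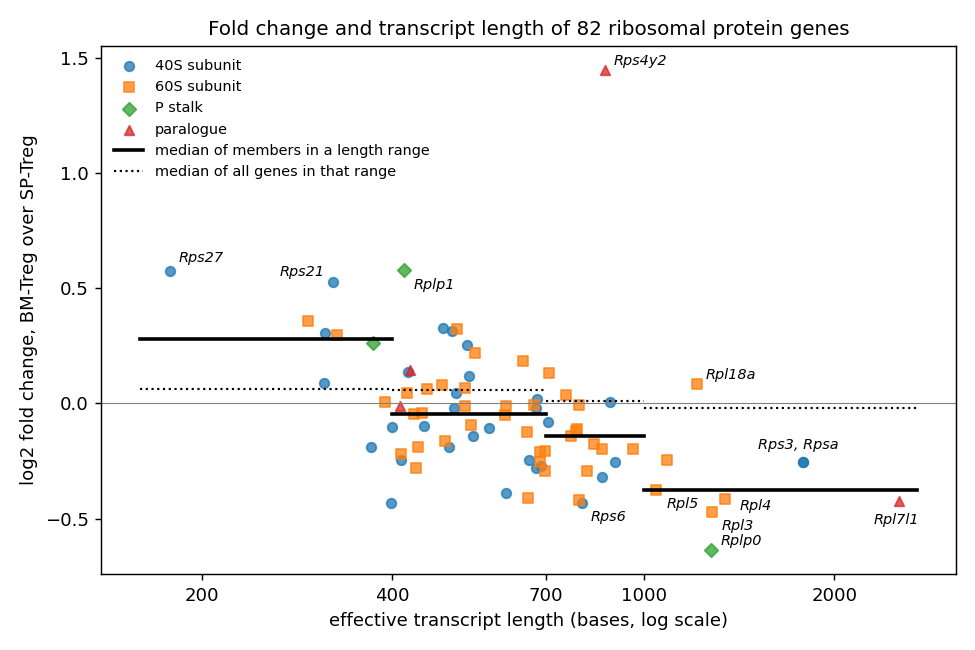
Fitted log2 fold change of BM-Treg over SP-Treg against effective transcript length (log axis) for the 82 members tested, with symbols for the subunit. Solid lines give the median of the members in each of 4 ranges of length, 0.28, -0.04, -0.14 and -0.38, and dotted lines the median of all genes tested in that range. Rps4y2, at 1.45, is the member farthest from the others.

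Paralogues were expressed far below their parent genes. Rpl22l1, the paralogue of Rpl22, a gene required for the development of αβ T cells, was at 14.0% ± 0.791 of the Rpl22 FPKM in BM-Treg and at 11.6% ± 3.34 in SP-Treg (SD, n = 4), in overlapping ranges. The log2 fold change was -0.28 for Rpl22 (SE 0.15, adjusted p = 0.30) and -0.01 for Rpl22l1 (SE 0.24, adjusted p = 0.982). Rps27l, a paralogue of Rps27 that is induced by p53, was at 1.03 to 1.55% of the Rps27 FPKM in BM-Treg and at 1.57 to 2.08% in SP-Treg, ranges that met without overlap. Rps27l itself had a log2 fold change of 0.15 (SE 0.21, adjusted p = 0.735), so that the ratio followed Rps27. Rpl7l1, a relative of Rpl7 found in nucleoli, was at 2.42% ± 0.685 and 2.68% ± 0.519 of the Rpl7 FPKM, with a log2 fold change of -0.42 (SE 0.17, adjusted p = 0.152), compared with -0.21 for Rpl7 (SE 0.16, adjusted p = 0.487). The row named Rps4y2 lies on chromosome 6 (chr6:148354656-148355598) and carries the name Rps4l in GENCODE M21. There its only transcript with counts, Rps4l-201, is of the processed transcript type and not protein coding. Rps4y2 was at 1.24, 1.40, 1.03 and 1.85 CPM in BM-Treg and at 0.217, 0.395, 0.165 and 1.16 CPM in SP-Treg. SP-Treg replicate 4 overlapped BM-Treg while the other SP-Treg libraries lay below it, and the log2 fold change was 1.45 (SE 0.57, adjusted p = 0.136). Its parent Rps4x was at 518 ± 63.8 and 639 ± 196 CPM, with a log2 fold change of -0.32 (SE 0.18, adjusted p = 0.310), so that Rps4y2 held at most 0.317% of the Rps4x FPKM in any library. This share was 0.186 to 0.317% in BM-Treg and 0.0328 to 0.124% in SP-Treg, without overlap, and rests on at most 1.85 CPM of Rps4y2. Of the 4 pairs compared, those of Rps27l and Rps4y2 had ratios without overlap and those of Rpl22l1 and Rpl7l1 overlapped. For Rps27l the gap was only that between 1.553% in BM-Treg and 1.566% in SP-Treg. How often the ratios of other gene pairs separate was not examined, so this is a description of these pairs. Rpl3l, Rpl10l, Rpl39l and Rps12l1 did not pass the filter on low counts. No library had more than 0.158 CPM of Rpl3l, known from muscle, 0.165 CPM of Rpl10l or 0.827 CPM of Rpl39l, both known from testis, and Rps12l1 was listed at 0 in all libraries but SP-Treg replicate 1, with 0.940 CPM. Rpl39, the parent of Rpl39l, was at 232 ± 37.7 and 244 ± 95.2 CPM, with a log2 fold change of -0.10 (SE 0.26).

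The deposited transcript table gives the makeup of each gene's counts, estimated from reads that overlapping transcripts share. Transcripts of the protein coding type in GENCODE M21 took 90.5% ± 0.472 of the members' counts in BM-Treg and 90.5% ± 0.380 in SP-Treg (SD, n = 4), and retained introns took 4.62% ± 0.205 and 4.83% ± 0.284, a difference below the SD of SP-Treg. In 38 members the main transcript held between 10 and 90% of the gene's counts, and in 6 of these (15.8%) its share did not overlap between the tissues, compared with 5.56% of the 4889 genes with such a transcript. Members had more counts than other genes, with a median of 7.90 against 4.02 on the log2 CPM scale, and the part of that difference in this comparison was not tested. Rpl27a, a 60S subunit gene, had the largest shift. Its main transcript Rpl27a-203 held 55.1, 59.4, 54.3 and 53.0% of the gene's counts in BM-Treg and 86.9, 76.5, 68.0 and 75% in SP-Treg. All 4 BM-Treg libraries lay within a narrow band below SP-Treg, with BM-Treg replicate 4 of batch 3 the lowest. The rest was spread over Rpl27a-205, of the nonsense mediated decay type, whose mean share was 13.5% for BM-Treg and 5.94% for SP-Treg, and transcripts listed as retained introns. Of these Rpl27a-201 held 10.8% and 2.66%, Rpl27a-202 9.87% and 9.57%, and Rpl27a-204 9.64% and 5.02%. The gene as a whole had a log2 fold change of -0.14 (SE 0.17, adjusted p = 0.668).

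Rpl15 had a similar pattern between transcripts that are all of the protein coding type. Rpl15-203 held 77.0, 71.6, 76.8 and 67.8% of the counts in BM-Treg and 85.2, 84.4, 86.9 and 85.7% in SP-Treg, with BM-Treg replicate 4 again the lowest and SP-Treg replicate 4 inside the range of SP-Treg. Rpl15-202 and Rpl15-204 made up 14.2% and 10.8% on average in BM-Treg and 8.84% and 4.70% in SP-Treg. The log2 fold change of the gene was -0.42 (SE 0.16, adjusted p = 0.120), and the CPM of Rpl15-203 was 184 ± 23.3 in BM-Treg and 284 ± 70.9 in SP-Treg. In the other 4 genes the means of the tissues differed by less than 6 percentage points. The main transcript of Rpl12, of the nonsense mediated decay type, held 72.9% ± 2.31 and 77.4% ± 0.815, and that of Rps3, protein coding, 80.7% and 83.1%, both lower in BM-Treg. Those of Rpl23, of the processed transcript type, 58.3% ± 1.29 and 55.4% ± 0.709, and of Rps28, protein coding, 68.6% and 62.9%, were higher in BM-Treg. Rpl12 and Rps3 barely separated. BM-Treg replicate 4, of batch 3, was at 76.16% for Rpl12, and SP-Treg replicate 3 at 76.27%. For Rps3, BM-Treg replicate 4 was at 81.966% and SP-Treg replicate 4 at 81.975%. The protein coding Rpl12-203 held 16.9% and 14.5% on average in BM-Treg and SP-Treg, and the protein coding Rpl23-201 32.6% and 36.2%. The transcript tables also show that the row named Rpl24 pools 2 genes. Rpl24-201 held 71.8% of it in BM-Treg and 71.0% in SP-Treg, and Zbtb11-201, of the neighbouring gene Zbtb11, held 25.5% and 27.2%, so the gene level log2 fold change of -0.12 (SE 0.12) covers both.

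**Figure D5:**
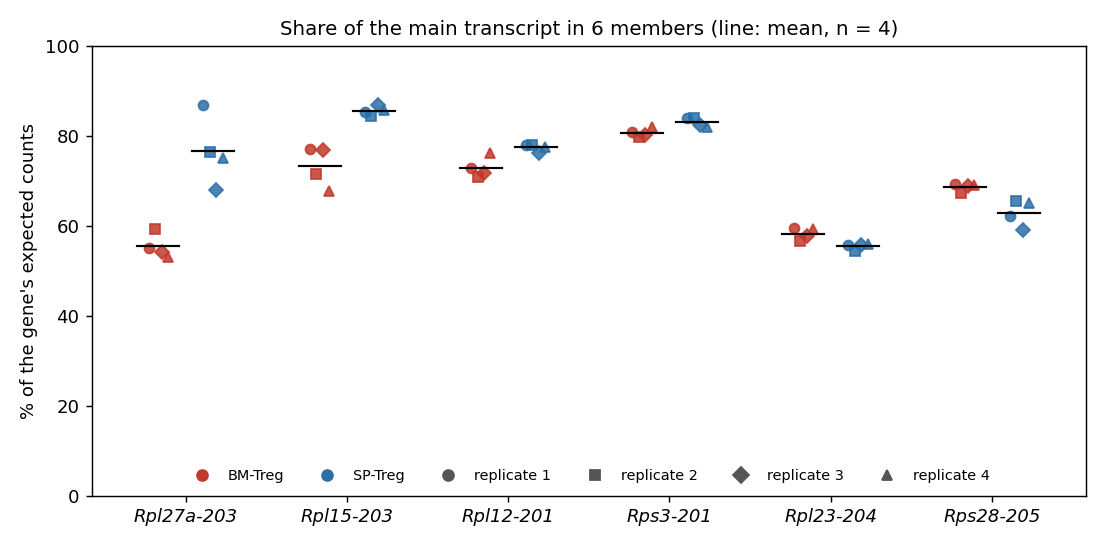
Share of each gene's expected counts held by its main transcript, in percent, for the 6 members in which the share did not overlap between the tissues, with symbols for the replicate number and lines for the mean (n = 4). Rpl27a-203 goes from 53.0 to 59.4% in BM-Treg to 68.0 to 86.9% in SP-Treg.

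Other genes of the translation machinery were compared with the same fit, from lists written with earlier results of these data known. Of 5 elongation factors, 1 was lower and 0 were higher. Eef1g, a subunit of the exchange factor for the elongation factor Eef1a, averaged 288 ± 49.9 and 449 ± 71.9 CPM in BM-Treg and SP-Treg (SD, n = 4), a log2 fold change of -0.66 (SE 0.14, adjusted p = 0.0086). The median of the 5 was -0.38. Among 10 proteins that bind ribosomes or whose mRNAs share the TOP tract, 5 were lower and 0 higher (50% called). The 5 were Npm1, a nucleolar chaperone of ribosome assembly, at -0.79 (SE 0.15), Nap1l1 at -0.72 (SE 0.11), Hnrnpa1 at -0.62 (SE 0.13), Eif4b, a cofactor of the cap-binding helicase, at -0.49 (SE 0.10) and Pabpc1, the cytoplasmic poly(A) binding protein, at -0.37 (SE 0.11) on the log2 scale. In each of these 5 genes every BM-Treg library lay below every SP-Treg library, and their values in batch 3 alone were between -0.54 and -0.34. The 5 were picked as lower in these same libraries, and batch 3 sets BM-Treg replicate 4 against the same SP-Treg libraries. Neither is therefore separate support. Of 38 initiation factors, a list that also holds Eif4b, 7 were lower and 0 higher (18.4% called), among them the cap-binding protein Eif4e at -0.59 (SE 0.12, adjusted p = 0.0065), Eif1a at -0.52 (SE 0.10) and Eif3a at -0.46 (SE 0.11) on the log2 scale, with a median of -0.13. Without SP-Treg replicate 4 the counts of lower genes in the 3 lists were 1, 4 and 6, with 0 higher, and with batch as a term they were 0, 0 and 0. The initiation factors had 3 lower genes without BM-Treg replicate 1, 3 without BM-Treg replicate 2 and 3 with total counts as library sizes, with 0 higher.

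Of 16 regulators of mTORC1 and TOP mRNAs that were tested, 2 were higher and 1 was lower in BM-Treg. Sesn1, which restrains mTORC1 when amino acids are scarce, was at 156 ± 18.4 and 109 ± 4.78 CPM, a log2 fold change of 0.50 (SE 0.11, adjusted p = 0.0088). Eif4ebp2, a repressor of Eif4e, was at 222 ± 12.3 and 164 ± 17.9 CPM, a log2 fold change of 0.42 (SE 0.10, adjusted p = 0.0182). Larp4, an RNA binding protein that stabilises mRNAs through their poly(A) tail, had a log2 fold change of -0.50 (SE 0.13, adjusted p = 0.0227). With batch as a term Larp4 passed (-0.90, adjusted p = 0.0246), whereas Sesn1 (0.47, adjusted p = 0.155) and Eif4ebp2 (0.52, adjusted p = 0.0986) did not. Of 8 dedicated chaperones of ribosomal proteins 0 passed in edgeR, with 2 at an unadjusted p under 0.05, and 0 in DESeq2. Of 78 mitochondrial ribosomal protein genes, which build the separate ribosome of the mitochondrion, 1 passed (1.28%), Mrps6, with a log2 fold change of -0.89 (SE 0.16), and the median was -0.04. Mrps6 did not pass with batch as a term (-0.81, adjusted p = 0.137). The share called was above the 8.75% of all genes for the elongation factors, the ribosome partners, the initiation factors and the mTORC1 regulators. It was below that share for the chaperones, the mitochondrial ribosomal proteins and the cytosolic ribosomal proteins. These shares only describe lists chosen with earlier results known. That of the elongation factors rests on 1 call among 5 genes, and that of the mTORC1 regulators on calls in both directions. Eif4b counts among both the ribosome partners and the initiation factors. With batch as a term the elongation factors, ribosome partners and initiation factors had 0 calls. In bulk RNA of this kind, fewer cells with a transcript and less transcript per cell cannot be told apart.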

How the data were processed

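RNA of FoxP3+ cells (4 BM-Treg and 4 SP-Treg libraries) was amplified by NuGEN's SPIA, an isothermal cDNA amplification, and read for 80 nt from 1 end. The submitters' processing notes name cutadapt 1.9, STAR 2.5.2a, RSEM 1.2.30 and GRCm38, with no order or settings. The authors deposited RSEM's expected counts (fractional read estimates, not normalized between libraries) and FPKM values (the same estimates per effective length and depth), for genes and for transcripts. Per the file headers each column is a library, and 0 columns were left unmatched. Expected counts were rounded, filtered with filterByExpr on the groups, scaled by TMM and fitted in edgeR with the quasi-likelihood test (robust, no covariate, R 4.3.3, edgeR 4.0.16), with Benjamini-Hochberg adjustment over 13397 genes. SE is the absolute log2 fold change divided by the square root of F. CPM used TMM library sizes, log2 CPM a prior count of 2. Effective length was the median over libraries of count over FPKM and depth. limma 3.58.1 and DESeq2 1.42.0 served for alternatives, and figures were drawn with matplotlib 3.10.9. The test was tried on simulated data. Counts come from amplified cDNA without molecular identifiers, so errors are those between libraries.

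The members and the gene lists were chosen with earlier results of these data known. Genes named are members past the threshold, members with a known role or a paralogue, and the 3 highest and the 3 lowest of the members tested by mean FPKM. Rpl15, Rpl27a and other genes of the transcript comparison, Mrps6 and the genes called in an alternative were named after their values had been seen. The values of 1 member are not reported here by name, and it is kept in the counts. All 86 identifiers are in GENCODE M21, 47 with identical coordinates and 86 with overlapping ones, and gene coordinates are those of the deposited tables. Promoter sequences are from RefSeq (GRCm38.p6). Replicate numbers were checked for pairing. Alternatives were other scalings, filters and tests, leaving out each library, batch as a term or batch 3 by itself, a block for replicate number, pseudogene counts added to their parent, an adjusted p of 0.01 and, added after the data had been seen, offsets for length and GC content.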

Additional observations from a re-analysis of the deposited data

Results flagged for a closer look

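Of 56 groups of 4 libraries examined for a library far from the others (Dixon's test, by which chance alone marks about 1 group in 20), 8 were marked, each by SP-Treg replicate 4. Members made up 2.87% of the expected counts of that library, against 1.87 to 1.97% in the other SP-Treg libraries. The CPM of Rpl3 was 572 against 409.7 to 429, that of Rps21 109 against 63.8 to 70.3, and that of Rplp2 266 against 153 to 171. Rps6 was at 920.5 CPM against 672 to 699, Rps27a at 119 against 66.2 to 73.8, Rpl38 at 131 against 74.8 to 83.3, and Rpl7 at 224 against 143 to 153. The groups are genes of the same 4 libraries and are not independent.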

How the results depend on the processing

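With all libraries 4 members and 1172 genes passed. The count of members was 2 with limma-trend on log2(FPKM + 0.1), 0 with a batch term, 0 at an adjusted p of 0.01, 12 with an offset for length and 14 with an offset for length and GC content. Leaving out 1 library gave 0 (BM-Treg replicate 1 and, equally, replicate 2) to 13 (SP-Treg replicate 4) members and 690 (BM-Treg replicate 2) to 1048 (SP-Treg replicate 3) genes, with 2 members without BM-Treg replicate 3. Over all genes 765 passed on log2(FPKM + 1) and 728 on log2(FPKM + 0.1), 63.0% and 62.4% of them higher in BM-Treg against 42.6%, then 258 with a batch term and 427 at an adjusted p of 0.01. The adjusted p ranged from 0.0030 to 0.496 for Rplp0, 0.0038 to 0.299 for Rpl3, 0.0011 to 0.262 for Rpl4 and 0.0013 to 0.294 for Rps21, and each kept its sign. Signs turned for 10 named genes, none of them past the threshold with all libraries or in the fit that turned. Fau was at -0.0192 with the offset for length and GC content, on the log2 scale as all values here. With a batch term and in batch 3 alone, Rpsa was at 0.0857 and 0.11, Rpl7 at 0.12 and 0.16, Rps27a at 0.0931 and 0.15, Rps19 at 0.0122 and 0.0736, Rpl39 at 0.18 and 0.28, and Rps24 at 0.15 and 0.28. On log2(FPKM + 1) and log2(FPKM + 0.1), Rpl11 was at 0.0552 and 0.0553, Rpl39 at 0.0386 and 0.0388, Rps24 at 0.0801 and 0.0803, and Rpl22l1 at 0.13 and 0.13. Rpl11 was at 0.0283 with total counts, and Rps24 at 0.0076 with limma-voom and 0.0070 with the replicate block. Rpl41 was at -0.0752 and -0.21 with the offsets for length and for length and GC content. Rpl22l1 was at 0.0108 without a filter, 0.0150 with at least 10 counts in every library, 0.0224 with the upper quartile, 0.0750 with total counts, 0.0161 without mitochondrial genes and Lars2, 0.0877 with limma-voom, 0.0756 in batch 3 and 0.0659 with the replicate block. Leaving out 1 library gave -0.14 to 0.0695 for Rpl11, -0.20 to 0.13 for Rps27a, -0.25 to 0.0052 for Rps19, -0.20 to 0.20 for Rpl22l1, -0.25 to 0.18 for Rpl39, -0.0977 to 0.22 for Rpl41 and -0.30 to 0.21 for Rps24. Over the named genes and alternatives, 583 values kept direction and side of the threshold (without a test, stayed within the SD between libraries), 31 passed it newly, 33 lost it, 49 turned and 5 moved without a test. Samples with the same replicate number correlated at -0.11, 0.06, -0.18 and 0.04 in their deviations, so the numbers did not pair them. With the replicate number as a block, 6 members and 948 genes passed, Rps27 and Rps6 in addition. The causes were not tested.

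Batch and sex are nearly confounded with tissue, and a single BM-Treg library shares the batch of SP-Treg. Reads from pseudogenes and overlapping transcripts are apportioned by estimate. With 4 libraries per tissue and SP-Treg replicate 4 apart, the smallest change of a member that passed was -0.42 on the log2 scale (Rpl4), while Rps4y2 at 1.45, Rplp1 at 0.58, Rps27 at 0.57 and Rps12, Rps6, Rpl7l1 and Rpl15 between -0.43 and -0.42 did not pass.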
